A study of Mus musculus with 8 samples.

Results

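In bulk RNA sequencing of 4 mouse tissues, the genes that kidney and liver shared against lung and small intestine were described. Of 52195 genes in the deposited table, 16328 had an FPKM (fragments per kilobase of transcript, scaled by library size) of 1 or more in at least 2 libraries. After rescaling of the libraries to one another, 4570 of these (28.0%) were separated, that is, the lowest library of one pair of tissues lay above the highest library of the other. The separated genes comprised 2000 genes that were higher in kidney and liver (12.2% of those tested) and 2570 that were higher in lung and intestine (15.7%). A further 13826 genes were above 0 somewhere but missed the limit on FPKM and are not described, including 220 that would have been separated towards kidney and liver and 739 towards lung and intestine. Kidney, liver, lung and small intestine were taken whole from untreated C57BL/6 mice, an inbred laboratory strain, at an age of 6 to 10 weeks, and the methods give male C57BL/6J animals. Poly(A) RNA was sequenced in 2 libraries per tissue, 8 in all, with 9164187 to 21444674 reads on genes per library. By the methods, the libraries of a tissue came from separate animals and each animal gave all tissues, but the replicate numbers are not tied to animals.

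Kidney proximal tubule cells and hepatocytes are both polarised epithelia that take up filtered or absorbed solutes, break down amino acids and fatty acids in mitochondria and peroxisomes, and release new glucose in fasting. Both rest on a related set of transcription factors, among them the nuclear receptor Hnf4a and the fatty acid receptor Ppara. Lung and small intestine instead are hollow organs that face the outside, with a surface epithelium, smooth muscle in their walls and resident lymphocytes, and the intestinal crypts renew themselves by constant cell division.

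The side difference below is the mean of kidney and liver minus the mean of lung and intestine on the scale of log2(rescaled FPKM + 1), with the standard error (SE) of a limma fit over all genes. It understates the change of genes with low values. Since the genes were chosen by the same values, their side difference is a description and carries no test. Each side holds 2 tissues with 2 libraries each, so the SE measures the spread between libraries of a tissue and not that between tissues. By that fit, with an adjusted p under 0.05 and a difference over 1, 2226 genes were called higher in kidney and liver (13.6%) and 2302 higher in lung and intestine (14.1%). With the tissue as a random block, which brings in the spread between tissues, 130 and 45 genes were called. That fit set 1 correlation of libraries within a tissue (0.861) for all genes, not an estimate for each gene. A stricter count took genes called in each of the 4 tissue pairs (kidney and liver, each against lung and against intestine). It held 563 genes higher in kidney and liver (3.45%) and 534 higher in lung and intestine (3.27%), and all of them were separated as well. Among the separated genes, 1207 were called higher in kidney and liver (7.39% of those tested) and 1365 higher in lung and intestine (8.36%).

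The scaling of the libraries bears on every count. Median of ratios gave size factors from 0.552 in liver replicate 1 to 1.90 in lung replicate 2, and the median side difference of all genes tested was -0.07. With the values as deposited that median was -0.70, and 601 genes were separated towards kidney and liver (3.68%) and 5370 towards lung and intestine (32.9%). All 601 were among the 2000 described here, as were all 2570 of the other direction among the 5370. As deposited, 1 of the 2000, the helicase gene Ddx1, was separated towards lung and intestine instead. Quantile normalization gave 2096 (12.8%) and 2423 (14.8%), with 1722 and 2103 of the described genes kept.

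The tissue labels were checked against cell type markers. Summed proximal tubule markers reached 1876 and 2213 rescaled FPKM in kidney and at most 6.47 elsewhere. Summed hepatocyte markers reached 94533 and 75815 in liver and at most 256 elsewhere. Markers of alveolar type 2 cells in lung (9019 and 7473) and of enterocytes in intestine (5171 and 7137) were likewise highest in the labelled tissue. The intestine libraries also held pancreatic acinar transcripts (summed 2771 and 1353) and the lung libraries cardiac muscle transcripts (74.6 and 70.4), whose part in the results was not tested. Of these markers, Cpb1 among the 8 acinar ones and Myl7 and Tnnt2 among the 4 cardiac ones were themselves separated towards lung and intestine. Erythroid transcripts varied within tissues, from 842 to 3352 in kidney, and none of their markers was separated. In bulk tissue, fewer cells of a type and less RNA per cell cannot be told apart.

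The genes with the widest gaps towards kidney and liver included a cytochrome P450, a synthase of arginine, conjugating transferases, enzymes of amino acid breakdown and a secreted phosphoprotein. Cyp2j5 (chr4:96628773-96664154), a cytochrome P450 that oxidises arachidonic acid, had 468 and 588 in kidney, 311 and 274 in liver, 0.962 and 0.361 in lung, and 0.330 and 0.575 in intestine. All 4 kidney and liver libraries lay far above the others, and the side difference was 7.995 ± 0.16. Ass1 (chr2:31470207-31520672), the argininosuccinate synthase of the urea cycle and of renal arginine synthesis, had 844 and 1245 in kidney, 1902 and 1130.0 in liver, 9.09 and 7.21 in lung, and 3.01 and 2.62 in intestine, a difference of 7.70 ± 0.22. Of the Ass1 transcript sequence, 43.1% is shared with the pseudogene Gm5424, so its level is uncertain.

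Hgd (chr16:37580153-37632020), which opens the ring of homogentisate in tyrosine breakdown, stood at 112 and 166 in kidney, 362 and 362 in liver, 0.431 and 0.178 in lung, and 0.148 and 0.290 in intestine. The liver libraries were above the kidney libraries, and both were far above the rest (side difference 7.47 ± 0.16). Ugt3a2 (chr15:9335550-9370955), a sugar-conjugating transferase, showed the reverse order within its side, with 403 and 478 in kidney, 179.9 and 155 in liver, 0.727 and 0.219 in lung, and 0.156 and 0.136 in intestine and a side difference of 7.72 ± 0.15. Its neighbour Ugt3a1 was between 132 and 381 in kidney and liver and between 0.109 and 0.655 in lung and intestine. Aldh8a1, an aldehyde dehydrogenase of tryptophan breakdown, had 79.7 and 116 in kidney, 112 and 109.8 in liver, 0.218 and 0.0579 in lung, and 0.0220 and 0.0384 in intestine, so that the kidney and liver libraries overlapped. Aadat, an aminotransferase of lysine and kynurenine breakdown, had 80.97 and 117 in kidney, 77.6 and 64.4 in liver, 0.129 and 0.0389 in lung, and 0.133 and 0 in intestine, with 1 intestine library listed at 0. Rida, a deaminase of reactive imines, was between 274 and 406 in kidney and liver and between 2.42 and 3.32 in lung and intestine, and Spp2, a secreted phosphoprotein, was between 94.5 and 201 in kidney and liver and between 0.170 and 0.455 in lung and intestine. These 9 genes were also among those called with tissue as a random block, which is again a description, since the genes were chosen by these values.

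**Figure D1:**
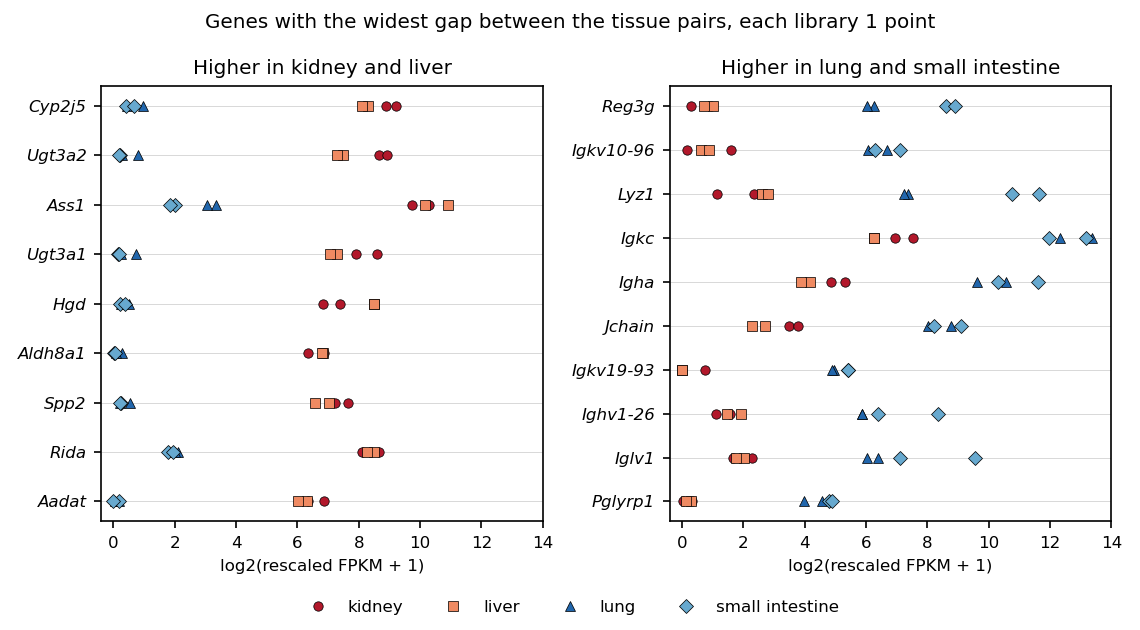
log2(rescaled FPKM + 1) of 9 genes higher in kidney and liver and 10 higher in lung and intestine with the widest gaps, with 1 point per library and the tissues told apart by colour and shape. On each line the points of kidney and liver lie apart from those of lung and intestine, from Cyp2j5 (lowest kidney or liver library 274, highest other library 0.962 rescaled FPKM) to Pglyrp1 (14.9 against 0.262).

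Gaps of this size were rare. The 2000 genes higher in kidney and liver had a median gap of 0.371 on the log2 scale, 366 had a gap of 0.1 or less, and 416, 164 and 52 had gaps over 1, 2 and 4. The median side difference was 1.21. Protein-coding genes made up 1800 and pseudogenes 103, and 336 genes stayed under 1 rescaled FPKM in all 4 lung and intestine libraries. Of the 52 genes with gaps over 4, 47 were higher in lung replicate 1 than in lung replicate 2 (medians 0.618 and 0.230 rescaled FPKM), a trace level in both.

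Amino acid and one-carbon catabolism lay almost whole on the kidney and liver side. Of 82 listed genes tested, 70 were separated and 78 called, none towards lung and intestine, against 12.2% and 13.6% of all genes. In all 4 pairs 61 were called, against 3.45%. The median side difference was 3.33, against -0.07 over all genes, and 60 genes were separated with the values as deposited. Fah, which ends tyrosine breakdown, had 154 and 207 in kidney, 357 and 303 in liver, 7.37 and 6.92 in lung, and 1.26 and 1.41 in intestine, a division like that of Hgd above. On the kynurenine path of tryptophan, Haao, which splits 3-hydroxyanthranilate, had 142 and 227 in kidney, 591 and 528 in liver, 4.15 and 6.62 in lung, and 0.950 and 1.17 in intestine. Acmsd, which diverts that path away from NAD synthesis, was low but separated at 30.4 and 37.7 in kidney, 15.98 and 14.3 in liver, 0.139 and 0 in lung, and 0.0342 and 0 in intestine. Kidney minus liver was -1.63 ± 0.28 for Haao and 1.11 ± 0.17 for Acmsd (adjusted p = 0.00294 and 0.00149, limma). Liver thus held more transcript of the first and kidney more of the second.

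Within this group the kidney and liver levels were compared with each other. The choice of genes did not set one against the other, but it left out genes that were low in either, so counts over the separated genes describe the genes that remained. Of the 70 separated genes, 32 were higher in liver and 3 in kidney by limma, against 10.6% and 11.4% of all genes tested. Bhmt, which methylates homocysteine with betaine, had 0.409 and 1.09 in kidney and 529 and 445 in liver against 0.196 and 0.169 in lung and 0.0840 and 0.205 in intestine, a kidney minus liver difference of -8.15 ± 0.21 (adjusted p = 1.94e-07, limma). It is thus separated by a trace in kidney. Gnmt, the glycine methyltransferase that buffers S-adenosylmethionine, differed by -6.51 ± 0.30 (adjusted p = 2.15e-06, limma) in the same direction. Both enzymes of creatine synthesis were separated, and they pointed opposite ways within the side. Gatm, which makes guanidinoacetate, stood at 277 and 376 in kidney, 6.39 and 6.64 in liver, 2.52 and 1.45 in lung, and 2.16 and 1.15 in intestine, and Gamt, which methylates it to creatine, at 13.01 and 16.7 in kidney, 115 and 82.2 in liver, 2.97 and 4.08 in lung, and 2.61 and 2.34 in intestine. Kidney minus liver was 5.43 ± 0.27 for Gatm (adjusted p = 3.14e-06) and -2.64 ± 0.23 for Gamt (adjusted p = 7.05e-05, limma). Aass, which starts lysine breakdown, stood at 125 and 130.1 in kidney and 136 and 116 in liver, and the difference of 0.02 ± 0.16 did not pass (adjusted p = 0.940, limma). Hepatic enzymes such as Tat, Tdo2 and Hal were not separated, because the kidney libraries overlapped lung and intestine at trace levels.

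Peroxisomal enzymes held 21 separated genes of 36, 33 called and 13 called in all 4 pairs, against 12.2%, 13.6% and 3.45% of all genes. None was separated or called towards lung and intestine, and the median side difference was 2.99. Peroxisomes shorten very long and branched fatty acids and use catalase to remove the peroxide made. Slc27a2, the acyl-CoA synthetase that activates very long fatty acids, had 584 and 717 in kidney, 330.3 and 251 in liver, 2.09 and 0.643 in lung, and 29.4 and 22.5 in intestine (side difference 5.80 ± 0.23). Pecr, an enoyl-CoA reductase, had 214 and 373 in kidney, 164 and 148 in liver, 2.46 and 1.40 in lung, and 5.42 and 4.12 in intestine (side difference 5.70 ± 0.22). Both were highest in kidney and above all lung and intestine libraries. Acox2, the oxidase of branched fatty acids and bile acid precursors, was between 26.6 and 96.1 in kidney and liver and between 1.69 and 2.22 in lung and intestine, and Amacr, the racemase that acts before it, was between 74.2 and 151 in kidney and liver and between 2.40 and 8.24 in lung and intestine.

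Cat, catalase, had 330.0 and 414 in kidney, 1617 and 1323 in liver, 55.5 and 50.3 in lung, and 124 and 118 in intestine. Intestine came closer to the higher side than lung did, and lung minus intestine was -1.18 ± 0.23 (adjusted p = 0.00383, limma). Among the 12 peroxisomal genes that were called but not separated, 8 overlapped kidney or liver through intestine alone and none through lung alone. Hao1, Agxt, Uox and Baat were liver genes with kidney at trace, and Hao2, an oxidase of longer hydroxy acids, was a kidney gene (116 and 161 in kidney, 0.579 and 0.452 in liver) that stayed separated over a highest lung or intestine library of 0.330.

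In mitochondria, 19 of 27 genes of fatty acid oxidation and ketogenesis were separated, 25 were called and 13 were called in all 4 pairs. Among all genes these shares were 12.2%, 13.6% and 3.45%, and the median of the list was 2.16. Cpt1a, the carnitine transferase that admits fatty acids, had 72.8 and 67.2 in kidney, 77.6 and 74.2 in liver, 13.8 and 14.6 in lung, and 22.2 and 24.2 in intestine. Its kidney minus liver difference was -0.12 ± 0.16 and did not pass (adjusted p = 0.638, limma). Acadm, the medium-chain dehydrogenase, had 172 and 210.5 in kidney, 92.6 and 74.4 in liver, 9.51 and 10.4 in lung, and 25.5 and 25.9 in intestine, with kidney above liver by 1.19 ± 0.19 (adjusted p = 0.00218, limma). The widest gaps were those of the medium-chain acyl-CoA synthetases. Acsm1 had 98.4 and 105 in kidney, 289 and 262 in liver, 2.35 and 1.86 in lung, and 0.0444 and 0 in intestine, Acsm3 was between 12.4 and 67.03 in kidney and liver and between 0.0858 and 0.461 in lung and intestine and Acsm5 was between 17.3 and 43.4 in kidney and liver and between 0.0223 and 1.58 in lung and intestine. Acsl1, a long-chain synthetase, was between 13.6 and 81.6 in kidney and liver and between 2.12 and 4.005 in lung and intestine. Kidney minus liver was -1.43 ± 0.16 in Acsm1 and 2.15 ± 0.16 in Acsm3 (adjusted p = 2.94e-04 and 3.04e-05, limma), with liver higher in the first and kidney in the second.

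Glucose and sugar metabolism held 12 genes separated towards kidney and liver of 22 and 1 towards lung and intestine, against 12.2% and 15.7% of all genes. Called were 20 and 0, against 13.6% and 14.1%, with a median of 2.81. Pcx, Pck1, Fbp1 and G6pc, the steps that are particular to making glucose from lactate and amino acids, were all separated. Pcx, pyruvate carboxylase, had 93.7 and 87.6 in kidney, 110.1 and 91.7 in liver, 5.22 and 5.08 in lung, and 5.15 and 6.56 in intestine (side difference 3.90 ± 0.13). Pck1, the cytosolic phosphoenolpyruvate carboxykinase, had 580.0 and 359 in kidney, 1576 and 1099.6 in liver, 4.98 and 1.82 in lung, and 37.8 and 115 in intestine (side difference 5.55 ± 0.41). Its 2 intestine libraries lay apart, and the kidney and liver libraries were all above both. Fbp1, fructose bisphosphatase, had 532 and 702 in kidney, 758 and 664 in liver, 1.69 and 0.797 in lung, and 27.7 and 20.7 in intestine (side difference 6.48 ± 0.19).

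G6pc (chr11:101367561-101377903), the phosphatase that frees glucose, had 247 and 275 in kidney, 303 and 458 in liver, 0.818 and 0.386 in lung, and 29.7 and 40.1 in intestine (side difference 5.38 ± 0.19). Kidney and liver did not pass the test against each other in Pcx (-0.15 ± 0.18), Fbp1 (-0.22 ± 0.27) or G6pc (-0.51 ± 0.27), with adjusted p of 0.590, 0.605 and 0.189 in limma. In the lower tissues, intestine was above lung, with lung minus intestine at -3.51 ± 0.27 in Fbp1 and -4.48 ± 0.27 in G6pc (adjusted p = 3.23e-05 and 9.56e-06, limma). Khk, the ketohexokinase of fructose use, was not separated, with 261 and 400.3 in kidney, 241 and 213 in liver, 5.40 and 6.13 in lung, and 261 and 231 in intestine. All 8 genes of this list that were called but not separated overlapped through intestine alone. The gene separated the other way was Pck2, the mitochondrial carboxykinase, which was between 0.514 and 1.40 in kidney and liver and between 2.06 and 2.88 in lung and intestine.

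The tricarboxylic acid cycle and oxidative phosphorylation were less clear and depended on the scaling. Of 26 genes of the cycle and of pyruvate oxidation, 14 were separated and 21 called, with a median of 1.52. Of 72 nuclear subunits of oxidative phosphorylation, 16 were separated and 42 called, against 12.2% and 13.6% of all genes, and none was called in all 4 pairs, against 3.45%, with a median of 1.09. With the values as deposited, 6 genes of the cycle and 0 of the nuclear subunits were separated, and the medians were 0.56 and 0.12. Suclg2, a succinyl-CoA ligase subunit, had 94.1 and 118 in kidney, 92.4 and 76.2 in liver, 5.88 and 5.89 in lung, and 19.3 and 23.8 in intestine, and 20.6% of its sequence is shared with other genes. Mpc1, a subunit of the mitochondrial pyruvate carrier, was between 20.7 and 43.8 in kidney and liver and between 4.12 and 6.78 in lung and intestine, and its partner Mpc2 was between 21.4 and 38.5 in kidney and liver and between 3.13 and 8.85 in lung and intestine. Idh2 was highest in kidney, with 175 and 220.2 in kidney, 61.5 and 46.5 in liver, 25.3 and 24.0 in lung, and 18.5 and 16.8 in intestine.

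In these lists intestine stood beside kidney and liver. Cs, citrate synthase, was highest in intestine, at 34.7 and 36.8 in kidney, 24.7 and 21.3 in liver, 10.0 and 11.1 in lung, and 84.7 and 116 in intestine, and so were Mdh2 and Ogdh. All 7 genes of the cycle and all 26 nuclear subunits that were called without being separated overlapped through intestine alone. The median difference of the nuclear subunits was 2.20 for kidney against lung and 1.68 for liver against lung, but 0.34 and -0.09 against intestine. Ndufa4, a subunit of the respiratory chain, had 346 and 497 in kidney, 265 and 264 in liver, 50.9 and 50.04 in lung, and 194 and 167 in intestine (side difference 1.78 ± 0.17, and 0.80 as deposited). Of the 13 subunits encoded in mitochondrial DNA, 11 were separated after rescaling, but 3 as deposited and 3 after quantile normalization, where the median fell from 1.84 to 0.25. mt-Nd2 was separated in the deposited values too, at 12824 and 25027 in kidney, 18479.6 and 15429 in liver, 2591 and 2070.4 in lung, and 4678 and 5606 in intestine after rescaling.

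**Figure D2:**
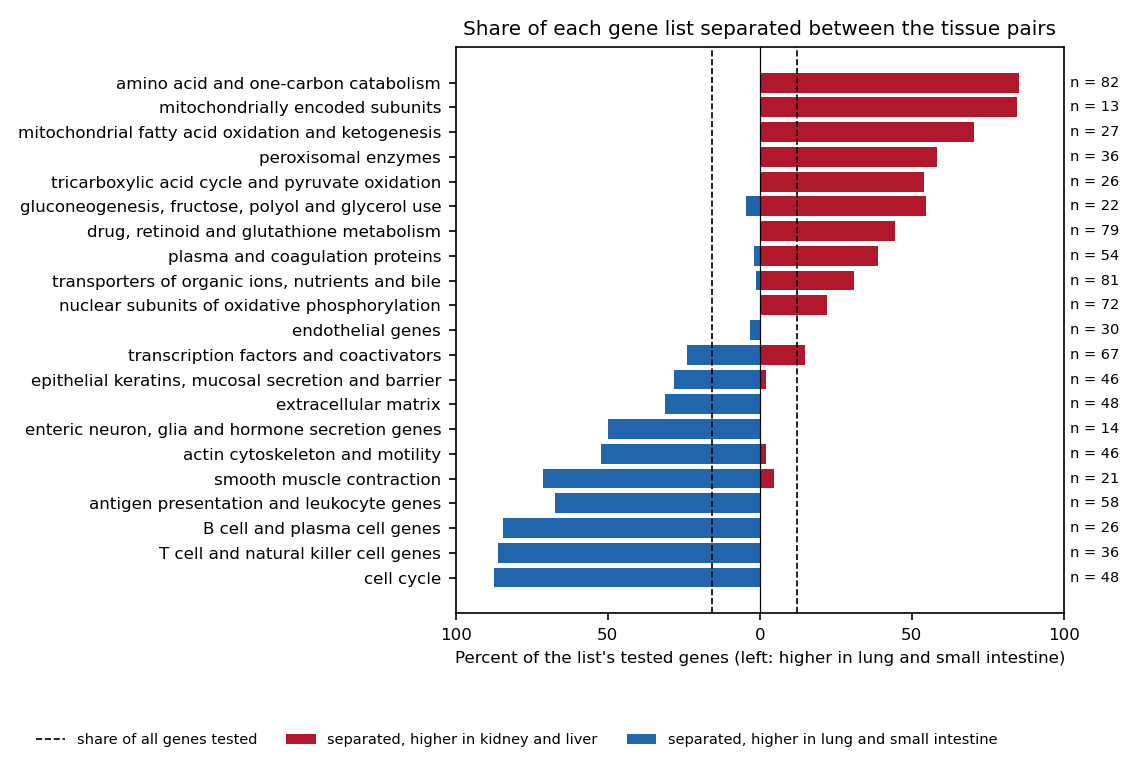
Percent of the tested genes of each list that were separated towards kidney and liver or towards lung and intestine, beside the share over all 16328 genes (12.2% and 15.7%). Amino acid catabolism has 70 of 82 genes on the kidney and liver side, T cell and cell cycle genes lie on the other side, and transcription factors are divided.

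Drug, retinoid and glutathione metabolism held 35 separated genes of 79 towards kidney and liver and 0 towards lung and intestine. Among all genes 12.2% and 15.7% were separated. The list had 62 and 1 called, against 13.6% and 14.1%, 30 called in all 4 pairs, against 3.45%, and a median of 2.42. Cyp2e1, the ethanol-inducible cytochrome P450, had 415 and 483 in kidney, 3872 and 2643 in liver, 8.15 and 4.55 in lung, and 2.78 and 1.99 in intestine, so kidney lay far above lung and intestine and yet below liver, with a kidney minus liver difference of -2.83 ± 0.31 (adjusted p = 2.50e-04, limma). Gsta2, a glutathione transferase, was between 51.9 and 183 in kidney and liver and between 2.05 and 11.9998 in lung and intestine, and Cyp7b1, a hydroxylase of oxysterols, was between 57.2 and 182 in kidney and liver and between 0.584 and 1.93 in lung and intestine. Of the 35 separated genes, 9 were higher in kidney and 14 higher in liver by limma, against 11.4% and 10.6% of all genes. Of the 27 genes called but not separated, 4 overlapped through lung alone, 14 through intestine alone and 9 through both.

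Transporters of organic ions, nutrients and bile held 25 genes separated towards kidney and liver of 81 and 1 towards lung and intestine. The shares over all genes were 12.2% and 15.7%. Called were 46 and 5, against 13.6% and 14.1%, with a median of 2.10. Slc26a1, a sulfate and oxalate exchanger, had 34.4 and 29.7 in kidney, 62.1 and 49.02 in liver, 0.0975 and 0.0523 in lung, and 0.0239 and 0.104 in intestine (side difference 5.33 ± 0.12). Slc6a13, a transporter of GABA and taurine, had 28.2 and 34.8 in kidney, 115 and 86.2 in liver, 0.155 and 0.0875 in lung, and 0.133 and 0.0290 in intestine, and was higher in liver, with kidney minus liver at -1.63 ± 0.19 (adjusted p = 4.02e-04, limma). Slc22a30 and Slc22a28, of the organic anion transporter family, were between 57.8 and 141 in kidney and liver and between 0.0377 and 0.151 in lung and intestine and between 43.6 and 118 in kidney and liver and between 0 and 0.169 in lung and intestine, but 42.9% and 68.2% of their sequence is shared with other genes, so their split is uncertain. Slc47a1, which exports organic cations, was between 36.96 and 159.6 in kidney and liver and between 0.501 and 13.2 in lung and intestine. Its lowest kidney or liver library was above every lung and intestine library. Among the 25, 11 were higher in kidney and 8 in liver by limma, against 11.4% and 10.6% of all genes. Slc22a6, the basolateral anion carrier of the proximal tubule, had 176 and 232 in kidney and 0.442 and 0.652 in liver against a highest other library of 0.420, and Slc10a1, the bile acid uptake carrier of hepatocytes, had the reverse, 0.309 and 0.914 and 324 and 327 against 0.308.

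**Figure D3:**
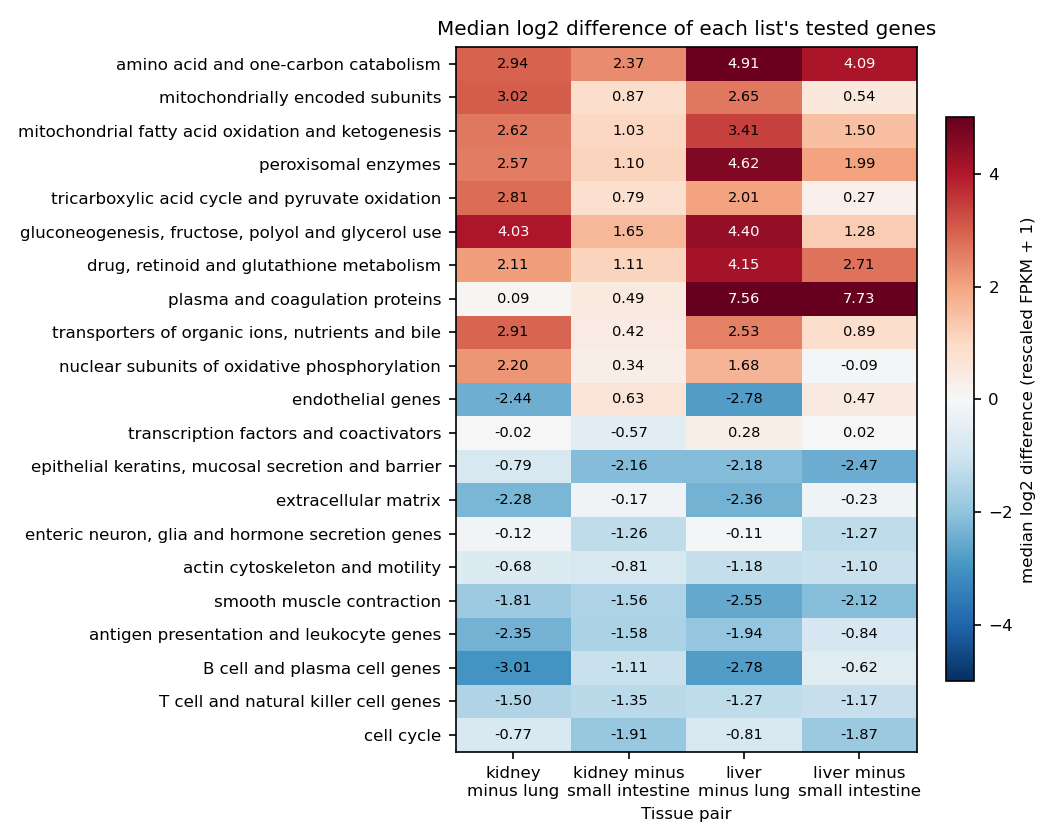
Median log2 difference of each gene list in the 4 tissue pairs, kidney minus lung, kidney minus intestine, liver minus lung and liver minus intestine. Amino acid catabolism lies above 0 in all pairs (2.94, 2.37, 4.91 and 4.09), oxidative phosphorylation does so against lung and for kidney against intestine (0.34) but not for liver against intestine (-0.09), and plasma proteins do so for liver (7.56 and 7.73) but hardly for kidney (0.09 and 0.49).

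Plasma and coagulation proteins, a list added after values were seen, differed in its make-up from the enzymes. Of 54 tested, 50 were called but 21 separated towards kidney and liver, against 13.6% and 12.2% of all genes. By limma, 18 of these 21 were higher in liver, against 10.6% of all genes. F13a1, a coagulation factor subunit named after its values were seen, was separated towards lung and intestine without a call, at 0.0269 and 0.0716 in kidney, 0 and 0.0229 in liver, 1.68 and 2.28 in lung, and 0.129 and 0.1001 in intestine. The median of the list was 7.56 for liver against lung and 0.09 for kidney against lung. Some of these genes were nonetheless made at a level in kidney well above a trace. F13b, a coagulation factor subunit, had 53.5 and 63.9 in kidney, 144 and 140.0 in liver, 0.156 and 0.117 in lung, and 0.0764 and 0.0999 in intestine, Serpinf2, the inhibitor of plasmin, had 81.6 and 116 in kidney, 427 and 365 in liver, 0.437 and 0.401 in lung, and 0.791 and 0.689 in intestine, and Kng2, a kininogen, was between 93.3 and 167 in kidney and liver and between 0.0338 and 0.652 in lung and intestine with 30.6% of its sequence shared. Apom, an apolipoprotein of high-density lipoprotein, had 45.1 and 76.2 in kidney, 304 and 336 in liver, 0.668 and 0.502 in lung, and 0.191 and 0.166 in intestine. In each of these, both kidney libraries were far above the highest lung or intestine library.

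Across all 2000 genes higher in kidney and liver, the 2 tissues differed by limma in 24.0%, against 22.0% of all genes tested. Liver was higher in 300 (15.0%, against 10.6% of all genes) and kidney in 180 (9.0%, against 11.4%), which is a description for the same reason as above. The median absolute difference was 0.409, beside 0.408 over all genes. Among genes separated and called with a mean FPKM of at least 10 in both tissues, the largest difference towards kidney was that of Kap, the kidney androgen-regulated protein, with 14714 and 44051 in kidney, 60.4 and 79.9 in liver, 45.1 and 9.23 in lung, and 18.2 and 13.2 in intestine. Towards liver the largest were those of Serpina1b (-8.53) and Serpina1c (-8.40), of whose sequence 44.7% and 82.2% is shared with other genes. Next was Gc, the vitamin D-binding protein, with 14.1 and 22.2 in kidney, 6293 and 5779.7 in liver, 3.97 and 2.43 in lung, and 0.944 and 0.914 in intestine. The smallest difference was that of Hspa9, a mitochondrial chaperone, at 153 and 166 in kidney and 169 and 149 in liver.

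Some genes were separated with one of the 2 tissues at a small share of the other. Kidney stood below 10% of liver in 101 genes and liver below 10% of kidney in 68. The hepatocyte markers summed to 0.121% and 0.300% of their liver level in the kidney libraries, and the proximal tubule markers to 0.247% and 0.316% of their kidney level in the liver libraries. The lowest share of a separated gene was 0.0772% in kidney and 0.117% in liver, both below the shares of those markers. The hepatocyte markers Ttr and Serpina1a and the tubule markers Slc34a1, Slc22a6 and Slc7a13 were themselves separated, each below 10% in the other tissue. So were markers of other lists, such as Umod, Slc12a1 and Stab2. Whether a small carry-over between tissues contributes to these genes was not tested.

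**Figure D4:**
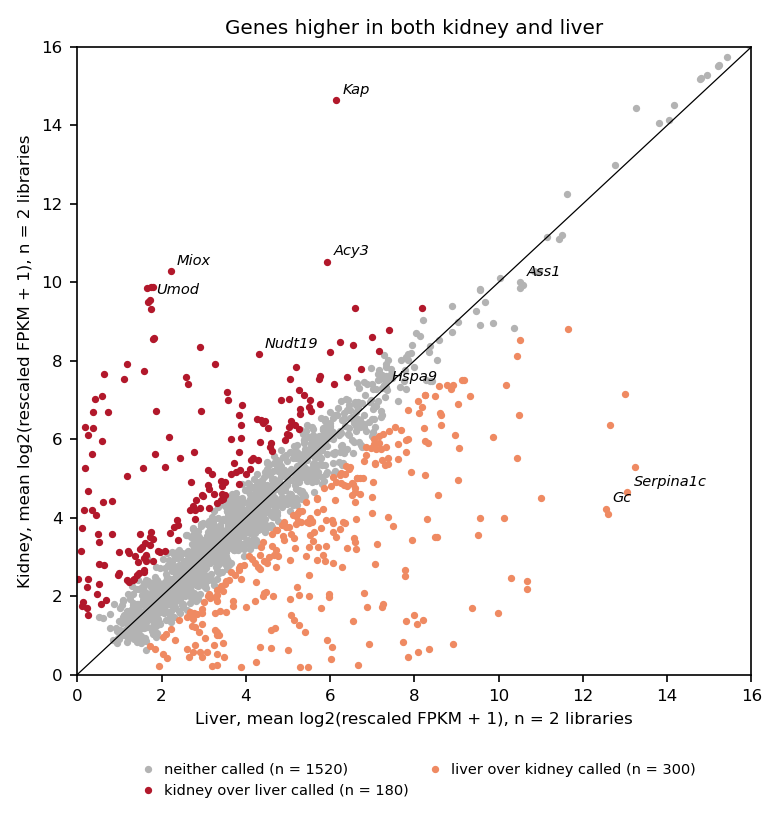
Mean log2(rescaled FPKM + 1) over 2 libraries in kidney (vertical) against liver (horizontal) for the 2000 genes higher in kidney and liver, with a line of equal levels. In dark red are the 180 genes called higher in kidney by limma, such as Kap, in orange the 300 called higher in liver, such as Gc, and in grey the 1520 called neither way, such as Hspa9.

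Of 67 transcription factors and coactivators tested, 10 were separated towards kidney and liver and 16 towards lung and intestine, against 12.2% and 15.7% of all genes, and 4 and 7 were called in all 4 pairs, against 3.45% and 3.27%. Their median was 0.15, beside -0.07 over all genes, and as deposited -0.68, beside -0.70. Nr1h4 (chr10:89454234-89533585), the bile acid receptor FXR, had 29.4 and 42.2 in kidney, 44.3 and 51.1 in liver, 0.122 and 0.147 in lung, and 10.8 and 13.9 in intestine (side difference 3.44 ± 0.15). Ppara (chr15:85734983-85802819), the receptor that switches on fatty acid oxidation, had 11.1 and 6.62 in kidney, 23.2 and 23.8 in liver, 0.250 and 0.276 in lung, and 1.24 and 4.24 in intestine (side difference 2.88 ± 0.28). Lung held little of either, intestine held an intermediate amount, and both genes were separated in the deposited values as well.

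Hlf, a circadian PAR-type factor, had 14.5 and 13.4 in kidney, 9.995 and 6.68 in liver, 1.71 and 1.23 in lung, and 0.362 and 0.858 in intestine, and Klf15, a factor of fasting metabolism, had 44.4 and 38.3 in kidney, 152 and 115 in liver, 19.4 and 15.5 in lung, and 2.43 and 4.47 in intestine. These 2, with Nr1h4 and Ppara, were the factors called in all 4 pairs. Hlf and Prox1 were also separated in the deposited values, and Klf15 was not. Hnf4a (chr2:163506808-163572910), a nuclear receptor of liver, kidney and gut epithelium, had 91.01 and 86.5 in kidney, 111 and 96.1 in liver, 0.421 and 0.184 in lung, and 53.2 and 75.7 in intestine. The side difference was 3.40 ± 0.15. Lung was far lower than intestine, which came close to the kidney level, and lung minus intestine was -5.63 ± 0.22 (adjusted p = 1.43e-06, limma).

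Prox1 was higher in liver than in kidney, at 7.30 and 13.8 against 0.842 and 0.680 in kidney (adjusted p = 1.20e-04, limma). Hnf4a was not separated in the deposited values. Other factors that are known in hepatocytes or tubules did not mark the shared side. Foxa3 had 0.0667 and 0.0395 in kidney and 22.2 and 16.7 in liver, and Hnf4g was highest in intestine (39.6 and 70.7). Cebpa had 7.26 and 10.4 in kidney, 121 and 120.0 in liver, 22.5 and 25.3 in lung, and 14.3 and 12.8 in intestine, with a side difference of 0.86 ± 0.14 after rescaling and -0.10 as deposited, where the median of all genes was -0.70.

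Towards lung and intestine, Klf4, a factor of barrier epithelium and vessel wall, had 2.49 and 3.58 in kidney, 2.59 and 5.16 in liver, 39.3 and 41.6 in lung, and 50.1 and 84.8 in intestine (side difference -3.59 ± 0.23). Klf5 was between 0.178 and 0.618 in kidney and liver and between 3.46 and 43.3 in lung and intestine, with a lung minus intestine difference of -3.00 ± 0.21 (adjusted p = 2.14e-05, limma). Foxf1, a factor of visceral mesenchyme, had 0.0750 and 0.266 in kidney, 0.409 and 0.575 in liver, 43.7 and 55.5 in lung, and 2.84 and 3.77 in intestine, and there lung minus intestine was 3.55 ± 0.19 (adjusted p = 6.00e-06, limma). Irf8, Spib, Ikzf1, Runx1, Runx3, Stat4, Tcf7, Tbx21 and Myb, which act in lymphocytes and myeloid cells, were also separated in this direction, though 23.7% of the Stat4 sequence is shared with another gene, which leaves its level uncertain. Irf8 had 0.905 and 1.42 in kidney, 0.924 and 1.23 in liver, 5.96 and 6.80 in lung, and 9.60 and 11.2 in intestine.

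**Figure D5:**
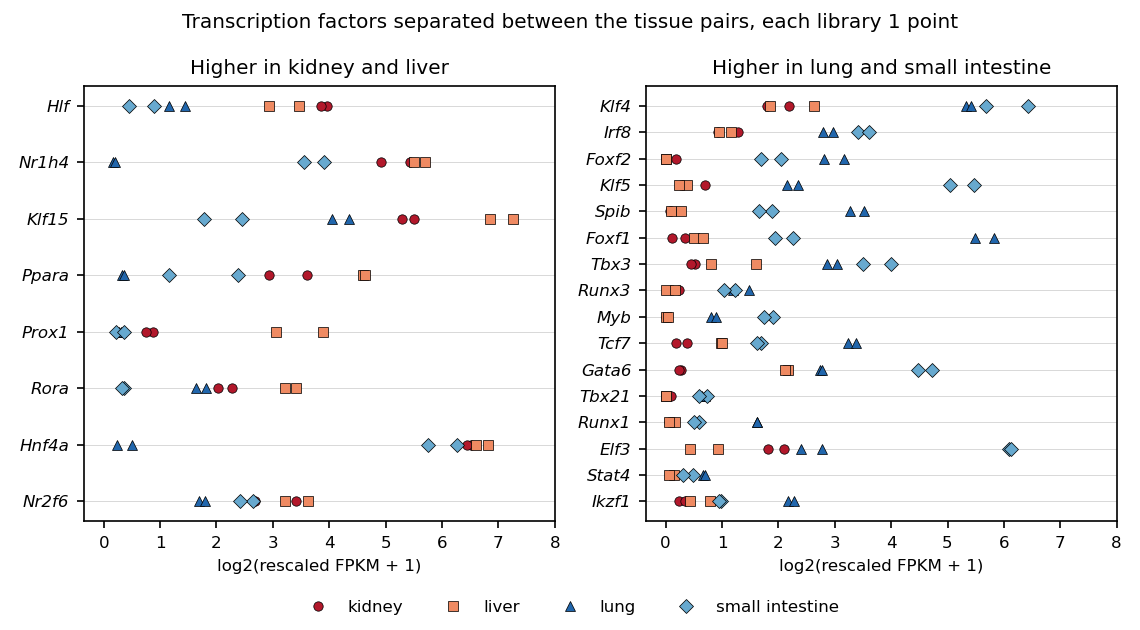
log2(rescaled FPKM + 1) of 8 transcription factors separated towards kidney and liver and of the 16 separated towards lung and intestine, with 1 point per library. The gap is wide in Nr1h4 and Ppara, whereas in Hnf4a the intestine points lie next to those of kidney and liver (86.5 against 75.7 rescaled FPKM).

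Promoters were searched for short motifs, because these factors have known binding sequences. RefSeq windows of build GRCm38.p6, from 250 bases before to 50 after the start, were at hand for 10988 of the 16328 genes (67.3%). CAAAGTCCA, a sequence known for Hnf4a, was searched on both strands and found for 80 genes (0.728%). It was found for 9 of 1489 separated genes higher in kidney and liver (0.604%), for 6 of the 437 called in all 4 pairs (1.37%), for 10 of 1751 separated genes higher in lung and intestine (0.571%), and for 3 of the 302 called in all 4 pairs in that direction (0.993%), so the share among the separated genes of either side was near that of all genes. A match is a description of letters and not a bound site. The following 4 windows are from genes called higher in kidney and liver in all 4 pairs whose match lies before the start. Genes of a chromosome that was left out of this choice are not reported here. The match is in capitals, with 20 bases on each side, in the direction of the gene.
Aadat (chr8:60506032-60506080, plus strand): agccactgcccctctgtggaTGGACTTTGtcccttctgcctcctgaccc
Agxt2 (chr15:10358492-10358540, plus strand): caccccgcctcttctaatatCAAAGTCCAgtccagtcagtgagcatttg
Aspdh (chr7:44465363-44465411, plus strand): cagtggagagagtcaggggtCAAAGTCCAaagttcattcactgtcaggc
Pafah2 (chr4:134397259-134397307, plus strand): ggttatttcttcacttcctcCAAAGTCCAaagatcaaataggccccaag

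In Aadat the motif reads on the opposite strand, and in the other 3 along the gene. The match lay 43 bases before the start in Aspdh, 63 in Aadat, 183 in Pafah2 and, for the 2 starts of Agxt2, 12 and 58. Agxt2, a mitochondrial aminotransferase of glyoxylate, had 29.7 and 28.7 in kidney, 52.7 and 41.5 in liver, 0.0535 and 0.0402 in lung, and 0.275 and 0.320 in intestine. Aspdh had 52.8 and 46.6 in kidney, 92.7 and 92.8 in liver, 0.192 and 0.144 in lung, and 1.18 and 1.09 in intestine, and Pafah2, a hydrolase of platelet-activating factor, had 30.6 and 43.4 in kidney, 48.5 and 42.6 in liver, 5.21 and 5.27 in lung, and 13.8 and 13.9 in intestine. Both lower tissues were near a trace in Agxt2 and Aspdh but not in Pafah2, and the levels of Aadat are given above. TTGCGCAA, of C/EBP factors, was found for 0.328% of all and 0.134% of the separated genes higher in kidney and liver, and ATTTGCAT, of octamer factors, for 1.66% and 1.34%. Among the separated genes higher in lung and intestine these shares were 0.571% and 2.91%, and among those called in all 4 pairs 0.993% and 3.31%.

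On the lung and intestine side, the widest gaps belonged to antimicrobial proteins of the surface and to immunoglobulins. Reg3g (chr6:78466269-78468872), a lectin that kills Gram-positive bacteria, had 0.236 and 0.912 in kidney, 1.03 and 0.657 in liver, 75.6 and 63.8 in lung, and 389.8 and 479 in intestine (side difference -6.70 ± 0.18). Pglyrp1, a peptidoglycan-binding protein, had 0.0246 and 0.262 in kidney, 0.215 and 0.0840 in liver, 22.6 and 14.9 in lung, and 27.02 and 28.4 in intestine (side difference -4.37 ± 0.16). Lyz1, the Paneth cell lysozyme, had 1.18 and 4.07 in kidney, 5.16 and 5.99 in liver, 165 and 152 in lung, and 1729 and 3172 in intestine, but 34.2% of its sequence is shared with Lyz2 of macrophages so the lung level in particular is uncertain. Intestine was above lung in both Reg3g and Lyz1, with lung minus intestine at -2.62 ± 0.25 and -3.88 ± 0.43 (adjusted p = 9.13e-05 and 1.87e-04, limma).

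Igkc, the kappa light chain constant region, had 124 and 184 in kidney, 76.5 and 76.3 in liver, 10478 and 5108 in lung, and 9336 and 3969 in intestine, and Igha, the heavy chain of immunoglobulin A, had 28.2 and 39.1 in kidney, 16.9 and 13.6 in liver, 1508 and 792 in lung, and 3128 and 1275 in intestine (side difference -5.97 ± 0.34). Jchain (chr5:88519809-88527891), which joins immunoglobulin A into dimers, had 10.1 and 12.8 in kidney, 5.49 and 3.86 in liver, 435 and 257 in lung, and 541 and 296 in intestine. In all 3, replicate 1 of lung and of intestine was above replicate 2, and every value was above those of kidney and liver. Lung and intestine did not pass the test against each other in Jchain (-0.26 ± 0.37, adjusted p = 0.606, limma). Of 187 immunoglobulin gene segments tested, 156 were separated towards lung and intestine and 0 towards kidney and liver. Among all genes 15.7% and 12.2% were separated, and the median of the segments was -2.76. Summed over segments, the level was 282 and 352 in kidney, 162 and 166 in liver, 17726 and 9346 in lung and 19559 and 8296 in intestine. Many segments share sequence (74.8% in Ighv1-26), so single segments are uncertain. With tissue as a random block, 4 of the 10 genes with the widest gaps in this direction were called (Reg3g, Jchain, Igkv19-93 and Pglyrp1), and the other 6 were not.

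Lymphocyte genes followed the same division. Of 36 T cell and natural killer cell genes tested, 31 were separated towards lung and intestine and 24 called. The shares over all genes were 15.7% and 14.1%. In all 4 pairs 14 were called, against 3.27%, with a median of -1.40 and none in the other direction. Lck, the proximal kinase of the T cell receptor, had 0.371 and 0.302 in kidney, 0.337 and 0.264 in liver, 7.28 and 7.46 in lung, and 5.32 and 5.18 in intestine. Ccl5, a chemokine of activated T cells, was between 0.206 and 1.61 in kidney and liver and between 10.05 and 40.01 in lung and intestine. Gzma, a granzyme of cytotoxic cells, had 0.135 and 0.320 in kidney, 1.18 and 0.767 in liver, 7.96 and 10.9 in lung, and 87.3 and 79.7 in intestine, with a lung minus intestine difference of -3.03 ± 0.20 (adjusted p = 1.49e-05, limma). Summed T cell markers were between 0.690 and 1.45 in kidney and liver, 20.1 and 23.8 in lung and 13.1 and 12.7 in intestine. All 6 markers were separated, and the part of T cell number in the values above was not tested.

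Of 26 B cell and plasma cell genes, 22 were separated and 20 called, against 15.7% and 14.1% of all genes, with a median of -1.75. Cd79a, a signalling chain of the B cell receptor, had 0.311 and 0.441 in kidney, 0.678 and 0.742 in liver, 36.8 and 56.4 in lung, and 9.36 and 8.33 in intestine, and Pou2af1, a coactivator of immunoglobulin genes, was between 0.0631 and 0.249 in kidney and liver and between 4.10 and 13.9 in lung and intestine. Lung was above intestine in 18 of the 22 separated genes by limma, and intestine above lung in 0, against 15.0% and 15.8% of all genes. Summed B cell and plasma cell markers, all 6 of which were separated, were between 6.16 and 15.3 in kidney and liver, 547 and 409 in lung, and 570 and 318 in intestine, and their part in the immunoglobulin values was not tested. The list of antigen presentation and leukocyte genes held 39 separated genes of 58 and 45 called, against 15.7% and 14.1% of all genes. It had 1 gene called the other way and a median of -1.62. H2-Aa (chr17:34282744-34287823), a chain of MHC class II, had 25.5 and 44.5 in kidney, 30.4 and 36.4 in liver, 275 and 259 in lung, and 118 and 128 in intestine, and Coro1a, an actin-binding protein of leukocytes, was between 2.37 and 3.78 in kidney and liver and between 13.7 and 63.04 in lung and intestine. Lung was above intestine in 15 of these 39 and intestine above lung in 0, against the same 15.0% and 15.8%. After quantile normalization the medians of the 3 lists were -1.37, -1.80 and -1.83.

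Cell cycle genes were separated in 42 of 48 cases, all towards lung and intestine, with 32 called, against 15.7% and 14.1% of all genes. Their median was -1.37. Mki67, a protein of dividing cells, had 0.256 and 0.0559 in kidney, 0.216 and 0.169 in liver, 1.66 and 1.71 in lung, and 5.94 and 6.23 in intestine. Ccnd2, a cyclin of the first growth phase, had 0.895 and 0.846 in kidney, 1.22 and 1.12 in liver, 6.22 and 5.44 in lung, and 6.66 and 10.1 in intestine. E2f2, a factor of DNA synthesis genes, was between 0.283 and 1.07 in kidney and liver and between 4.21 and 5.41 in lung and intestine. The levels in lung were intermediate, and intestine was above lung in 22 of the 42 genes by limma and lung above intestine in 0, against 15.8% and 15.0% of all genes. The median difference was -0.77 for kidney against lung and -1.91 for kidney against intestine.

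The same promoter windows were searched for motifs known from cell cycle genes. CCAAT, the box bound by NF-Y, was found for 27 of 34 separated cell cycle genes with a window (79.4%), for 30 of the 39 tested cell cycle genes with a window (76.9%), for 41.9% of all separated genes higher in lung and intestine and for 42.2% of all genes. TTTGAA, the core of the cell cycle homology region through which many mitotic genes are repressed at rest, was found for 16 of 34 (47.1%), 19 of 39 (48.7%), 16.4% and 15.0%. The 34 separated genes are among the 39, so the list and the separation cannot be told apart here. Both were searched on both strands, and the matches share the windows and may overlap other motifs. The 5 windows below have the match nearest before the start among separated cell cycle genes, again without the chromosome left out above. Capitals mark TTTGAA or its reverse TTCAAA.
Cdk1 (chr10:69352913-69352947, minus strand): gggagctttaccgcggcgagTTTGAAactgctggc
Cdc20 (chr4:118437344-118437381, minus strand): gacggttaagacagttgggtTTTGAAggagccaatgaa
Kif11 (chr19:37376343-37376381, plus strand): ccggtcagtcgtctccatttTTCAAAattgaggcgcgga
Top2a (chr11:99024190-99024232, minus strand): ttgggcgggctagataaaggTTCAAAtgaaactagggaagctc
Ube2c (chr2:164769880-164769925, plus strand): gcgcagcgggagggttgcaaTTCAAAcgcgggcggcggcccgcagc

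Cdk1, the kinase that drives mitosis, had 0.284 and 0.407 in kidney, 0.561 and 0.532 in liver, 1.31 and 1.16 in lung, and 6.14 and 6.12 in intestine, and Kif11, a motor of the spindle, was between 0.160 and 0.451 in kidney and liver and between 1.33 and 6.14 in lung and intestine. Cdc20, an activator of the anaphase-promoting complex, had 0.339 and 0.430 in kidney, 0.529 and 0.0826 in liver, 1.75 and 2.88 in lung, and 10.3 and 11.2 in intestine. Ube2c, the ubiquitin carrier of the same complex, was between 0.244 and 0.416 in kidney and liver and between 1.97 and 17.4 in lung and intestine, and Top2a, the topoisomerase that untangles chromosomes, was between 0.107 and 0.668 in kidney and liver and between 1.89 and 9.88 in lung and intestine. The match lay 9 bases before the start in Cdk1, 12 in Cdc20, 13 in Kif11, 17 in Top2a and 23 in Ube2c.

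Smooth muscle genes were separated towards lung and intestine in 15 of 21 cases, with 18 called and 14 called in all 4 pairs. The shares over all genes were 15.7%, 14.1% and 3.27%, and the median of the list was -2.23. Of this list, 1 gene was separated the other way without a call. Des, desmin, had 1.98 and 1.35 in kidney, 1.89 and 1.19 in liver, 26.8 and 25.9 in lung, and 45.1 and 40.04 in intestine, and Actg2, the enteric smooth muscle actin, had 0.262 and 0.516 in kidney, 0.761 and 0.198 in liver, 8.87 and 8.30 in lung, and 59.1 and 53.1 in intestine. Cnn1, calponin, was between 0.217 and 0.676 in kidney and liver and between 11.2 and 21.1 in lung and intestine. Acta2, which also marks vessel wall, had 15.7 and 21.3 in kidney, 4.88 and 4.85 in liver, 82.1 and 80.1 in lung, and 126 and 105 in intestine, with more in kidney than in liver (adjusted p = 3.44e-04, limma). Summed smooth muscle markers were between 6.89 and 25.3 in kidney and liver, 139 and 135 in lung, and 280.3 and 243 in intestine. Extracellular matrix genes were separated in 15 of 48 cases and 27 were called, against 15.7% and 14.1% of all genes, with 1 called the other way. Fbln1, fibulin 1, had 0.684 and 0.975 in kidney, 0.678 and 0.565 in liver, 7.91 and 7.44 in lung, and 35.4 and 39.2 in intestine, and Col6a1, a chain of collagen VI, had 2.18 and 1.71 in kidney, 2.26 and 1.94 in liver, 27.99 and 23.4 in lung, and 10.4 and 8.76 in intestine. Of the 16 matrix genes called but not separated, 6 overlapped through kidney alone, 4 through liver alone and 6 through both.

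Epithelial genes of the mucosa were separated towards lung and intestine in 13 of 46 cases, and 33 were called, against 15.7% and 14.1% of all genes. Krt19, the keratin of simple epithelia, had 1.34 and 2.25 in kidney, 3.30 and 2.33 in liver, 45.8 and 37.7 in lung, and 316 and 343 in intestine (side difference -5.20 ± 0.16), and Anxa2, a membrane scaffold, was between 5.34 and 19.8 in kidney and liver and between 88.8 and 200.1 in lung and intestine. Sdc4, syndecan 4, was the exception that was separated towards kidney and liver, at 69.5 and 69.3 in kidney, 169 and 137 in liver, 26.1 and 23.4 in lung, and 29.6 and 27.3 in intestine. Genes of the actin cytoskeleton were separated in 24 of 46 cases towards lung and intestine and in 1, Rdx (radixin), towards kidney and liver. Among all genes these shares were 15.7% and 12.2%. Vasp, which extends actin filaments, had 6.71 and 5.62 in kidney, 4.91 and 6.25 in liver, 21.3 and 25.8 in lung, and 44.3 and 50.1 in intestine, and Tmsb4x, the main actin monomer-binding protein, was between 49.4 and 79.8 in kidney and liver and between 229 and 821 in lung and intestine. Enteric neuron, glia and hormone genes were separated in 7 of 14 cases and 5 were called, against 15.7% and 14.1% of all genes, and 0 were called in all 4 pairs, against 3.27%.

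Endothelial genes were seldom separated. Of 30 tested, 1 was separated, Vwf, and 13 were called towards lung and intestine, against 15.7% and 14.1% of all genes, with a median of -0.94. Lung alone was high: the medians were -2.44 and -2.78 for kidney and liver against lung, and 0.63 and 0.47 against intestine. Summed endothelial markers were 29.4 and 24.8 in kidney, 33.4 and 26.6 in liver, 396 and 484 in lung, and 15.1 and 9.89 in intestine. Summed fibroblast markers were 12.7 and 11.7 in kidney, 63.8 and 65.9 in liver, 131 and 109.6 in lung, and 37.8 and 37.2 in intestine. Dcn alone made up 49.6 and 49.97 of the liver sums. Of the 6 markers, Dcn and Lum were higher in both liver libraries than in intestine, Col1a1, Col3a1 and Pdgfra were lower, and Col1a2 overlapped.

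Within the 2570 genes higher in lung and intestine, the 2 tissues differed by limma in 30.2%, against 30.7% of all genes. Lung was higher in 411 (15.99%, against 15.0%) and intestine in 365 (14.2%, against 15.8%). Since the choice of genes required both tissues to be high, these shares are a description. Without lung replicate 1 the 411 became 269, counted among the 2399 genes that were then separated in this direction. Many of the genes were low on the lower side, and 1293 stayed under 1 rescaled FPKM in all 4 kidney and liver libraries. Their median gap was 0.305, and 358, 95 and 7 genes had gaps over 1, 2 and 4.

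Separated genes were also placed along the chromosomes. Among 13416 tested protein-coding genes in order, 13.4% were separated towards kidney and liver, and 19.7% of the genes that followed such a gene were. Towards lung and intestine these shares were 16.1% and 21.1%. Runs of at least 4 neighbours numbered 11 and 21. The longest run held 13 genes at chr17:34119541-34369495, from H2-DMa to Btnl2, all higher in lung and intestine, with the MHC class II genes and the peptide transporters Tap1 and Tap2. Towards kidney and liver, a run of 7 at chr3:98445675-98893239 held Hsd3b steroid dehydrogenase genes and Hao2, a run of 6 at chr4:115299046-115621602 held Cyp4a fatty acid hydroxylase genes, and a run of 5 at chr19:8062209-8628299 held Slc22a anion transporter genes. A run of 5 at chr7:119462711-119662515 joined Acsm1, Acsm2 and Acsm5 with Umod, a kidney gene. Paralogs within these runs share sequence, and their reads may be split between them.

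At the edge of the choice of genes, Nudt4, a phosphatase of diphosphoinositol phosphates, was just inside the kidney and liver side, at 116 and 92.9 in kidney, 51.3 and 40.3 in liver, 17.4 and 16.3 in lung, and 27.5 and 40.2 in intestine, where the lower liver library and the higher intestine library nearly touch. Calr, an endoplasmic reticulum chaperone, was just outside, at 186 and 189 in kidney, 393 and 254 in liver, 120.0 and 105 in lung, and 175 and 186 in intestine. Its side difference was 0.77 after rescaling and -0.21 as deposited. On the other side Mir5125 was just inside, at 40.7 and 5.09 in kidney, 57.5 and 42.99 in liver, 79.95 and 99.8 in lung, and 57.6 and 73.6 in intestine, and Snhg5, a host gene of small nucleolar RNAs, was just outside, at 1.05 and 1.35 in kidney, 8.11 and 5.26 in liver, 8.57 and 8.11 in lung, and 9.51 and 9.94 in intestine.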

How the data were processed

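Poly(A) RNA of 4 tissues was measured in 8 libraries. The authors selected reads by sample index with bbduk, mapped them to the Ensembl release 75 mouse genome with STAR 2.5.3a and deposited FPKM values that DESeq2 computed. The program that counted reads and its use of strand are not given in the sources used here. The sample labels gave the tissue and the replicate number. The deposited FPKM values are largely in steps of whole reads (92.0% to 92.9% of values came out whole within 0.02 of a read), which gave between 9164187 and 21444674 reads on genes per library. For a gene with 1 kb of exons, 3 reads correspond to an FPKM from 0.140 in kidney replicate 1 to 0.327 in liver replicate 1, and lower values are not told from 0 at this depth (counting error only).

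FPKM values were rescaled by median of ratios over 15137 genes and tested as log2(FPKM + 1) in limma 3.58.1 under R 4.3.3, with 1 mean per tissue, a trend in eBayes and Benjamini-Hochberg adjustment over 16328 genes. Genes were called where the adjusted p was under 0.05 and the log2 difference over 1 in size. The step was tested on simulated data. Since both libraries of a tissue come from whole organs of separate mice, p-values measure the spread between these mice. The other steps used Python 3.11.15, numpy 2.4.6 and pandas 2.3.3. Symbols were matched to GENCODE M21 (99.3% to 1 gene), which gave coordinates in GRCm38 and the 31-base words that transcripts of different genes share. Of 163 genes that the rules below name, 16 shared over 20%, and these are named as uncertain where they are described.

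The genes, lists and rules were chosen with earlier results of these data known. Named were, for each side, the 10 separated and called genes with the widest gap and a mean FPKM of at least 10 in both higher tissues, up to 4 separated genes per list with the widest gap, the transcription factors, the genes next to the limit and those with the largest and smallest difference between kidney and liver. Some of these genes are not reported here, though they remain in the counts. Other listed genes, the promoter windows and the lists of plasma proteins and of mitochondrially encoded subunits were chosen after values were seen. Alternatives changed the scaling, pseudocount, filter, trend, blocks and libraries, and limma-voom on the recovered reads was added after seeing the data.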

Additional observations from a re-analysis of the deposited data

How the results depend on the processing

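The count of genes called higher in lung and intestine was 2302 and became 5523 with the values as deposited, 4112 with a pseudocount of 0.1 and 4073 with limma-voom on recovered reads, while the count higher in kidney and liver (2226) became 1103 as deposited. The share of calls that were higher in kidney and liver was 49.2%, and 16.6% as deposited. As deposited, the separated genes numbered 601 and 5370, and those called in all 4 pairs 265 and 1438. Counts within the separated genes were taken among the genes separated under each setting, so their base changed too. As deposited, 107 of the 601 were kidney over liver and 137 liver over kidney, and 1231 of the 5370 were lung over intestine. The genes called in all 4 pairs towards lung and intestine were 1165 with the pseudocount of 0.1 and 1087 with limma-voom. Lung over intestine (411) was 623 with limma-voom and 244 with an FPKM of 1 or more required in 4 libraries. With tissue as a random block, 130 and 45 genes were called. Leaving out 1 library at a time gave 1961 to 2256 and 1983 to 2373 calls, 2045 to 2534 and 2334 to 2986 separated genes, 527 to 618 and 506 to 552 genes called in all 4 pairs, 132 to 230 kidney over liver, 233 to 394 liver over kidney, 303 to 406 intestine over lung, and 269 to 497 lung over intestine. Of the 126 genes run under these settings, 10 of which missed the FPKM limit in 1 or 3 of them, Cebpa reversed, from 0.86 to -0.10 as deposited, where the median of all genes was -0.70. Among other genes in the text, compared only as deposited and after quantile normalization, Calr went from 0.77 to -0.21 as deposited and Mdh2 from 0.07 to -0.90 as deposited and -0.30 after quantile normalization. Of the other values of these 126 genes, 2006 kept their side of the threshold, 108 became weaker and 5 stronger. Most of the weaker values came with tissue as a random block, where most of the 126 genes no longer had an adjusted p under 0.05. Of the counts, 168 stayed within the set limit. The causes were not tested. Correlations of replicate differences between tissues ran from -0.217 to 0.027, which cannot tell whether libraries of the same number came from the same animal. A replicate block gave 2221 and 2301 calls and 561 and 536 genes called in all 4 pairs. Depth limits genes near 3 reads.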
